A study of Mus musculus with 12 samples.

Results

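A set of 10 genes that mark resident macrophages of the joint lining and of the deeper synovium was followed through both MHC class II-positive macrophage subsets of the mouse synovium, with and without the sensory neuropeptide CGRP. They are 10 of the 26699 gene symbols counted, chosen by name: 3 markers of lining macrophages (*Cx3cr1*, *Trem2* and *Vsig4*) and 7 markers of interstitial or perivascular resident macrophages (*Lyve1*, *Folr2*, *Timd4*, *Mrc1*, *Cd163*, *Retnla* and *F13a1*). All 10 were among the 11927 genes that passed the filter on low counts. The study places *Lyve1*, *Timd4* and *Folr2* with the *Cx3cr1*+ lining population rather than with the interstitial cells, so the names of both groups are working names only.

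The tissue was intact synovium of wild-type mice, given as C57BL/6 in the labels and as C57BL/6J background in the methods. Explants were cultured in 100 nM CGRP or in vehicle, and after 4 h the cells were released by digestion. The vehicle libraries have the treatment label Control and the word Healthy in their titles, and are called control here. MHCII+CD11c- macrophages (titled IAIE) and CD11c+MHCII+ mononuclear phagocytes (titled CD11c) were then sorted for RNA sequencing. The 4 groups, which are CD11c- control, CD11c- CGRP, CD11c+ control and CD11c+ CGRP, had 3 libraries each, 12 in all. CGRP was added to the whole explant, so the fibroblasts, vessels and nerves of the tissue met it as well as the macrophages. The methods used mice of both sexes and give no age for explant donors. The labels do not say whether the 3 libraries of a group came from separate animals, and p-values measure the spread between these libraries only. The MHCII- LYVE1+ lining macrophages themselves were not analysed here.

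Resident macrophages of the synovium settle in different layers. Lining macrophages form a sheet at the joint cavity with barrier-like contacts, and are known for the fractalkine receptor CX3CR1, the lipid receptor TREM2 and the complement receptor VSIG4. Macrophages of the sublining sit among fibroblasts and vessels, and many resident cells around vessels carry the hyaluronan receptor LYVE1, the folate receptor FOLR2, the phosphatidylserine receptor TIM4 (*Timd4*) and the scavenger receptors CD206 (*Mrc1*) and CD163. CGRP is released by nociceptor neurons and acts on a receptor built from RAMP1 and the calcitonin receptor-like receptor, which raises cyclic AMP.

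Library totals ranged from 2127191 to 5649698 counts. Levels are given as CPM, counts relative to library size, scaled by TMM (a scaling for library composition), for replicates 1, 2 and 3 in that order, and means as mean ± SD of 3 libraries. Fold changes are log2 estimates ± SE from edgeR's quasi-likelihood test, and a gene was called past the threshold at a Benjamini-Hochberg adjusted p under 0.05. In bulk RNA, fewer cells of a type and less RNA per cell cannot be told apart. The sort was visible in its own gene: *Itgax*, which encodes CD11c, averaged 6.19 ± 4.76 CPM in CD11c- control cells and 237 ± 29.0 CPM in CD11c+ control cells (n = 3 each).

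The 10 members together took between 0.552% and 0.716% of the counts in the CD11c- control libraries and between 0.246% and 0.291% in the CD11c+ control libraries. With CGRP these shares lay between 0.375% and 0.462% in CD11c- cells and between 0.166% and 0.224% in CD11c+ cells. In both subsets, every CGRP library lay below every control library of that subset. *Mrc1*, *F13a1*, *Cd163*, *Retnla* and *Lyve1* supplied most of these counts, whereas *Cx3cr1* rested on 7 to 61 counts per library.

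**Figure D1:**
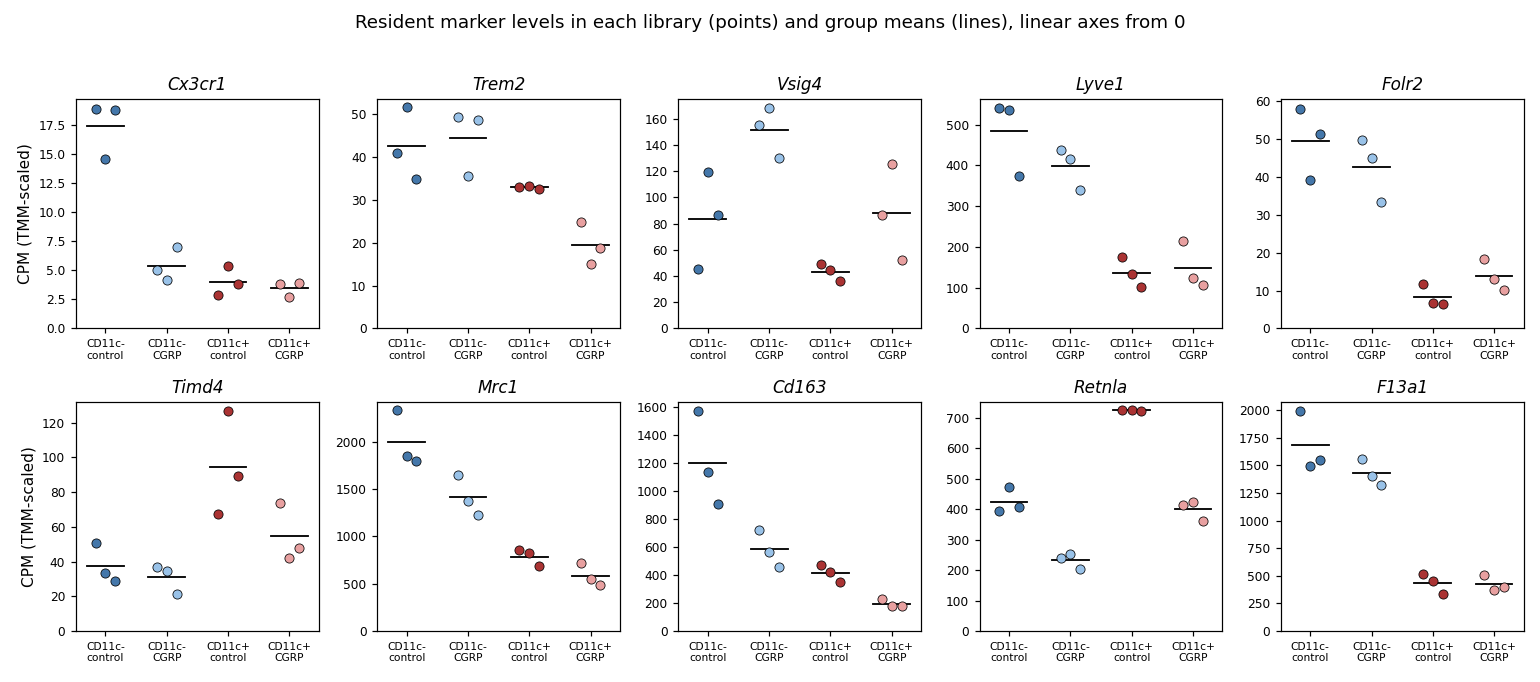
Levels of the 10 resident markers in each of the 12 libraries. Each panel is a gene, the vertical axis is CPM from 0 on a linear scale, points are libraries and lines are means of 3. *Retnla* and *Timd4* lay higher in CD11c+ than in CD11c- control cells, and the other 8 genes had lower means there.

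To compare levels between genes, CPM were divided by the length of the merged exons of each gene in the GENCODE vM21 annotation. Merged exons cover every annotated transcript, 4946 bases for *Trem2*, and which transcripts were expressed was not tested. On this per-length scale *Retnla*, a small secreted protein induced in alternatively activated macrophages, was the highest of the 10 in every group, from 387 ± 42.8 CPM per kb in CD11c- CGRP cells to 1209 ± 3.67 CPM per kb in CD11c+ control cells. *Cx3cr1* was the lowest in every group, at 3.87 ± 0.544 CPM per kb in CD11c- control cells and 0.895 ± 0.282 CPM per kb in CD11c+ control cells. In CD11c- control cells the order of means was *Retnla*, *Mrc1*, *F13a1*, *Cd163*, *Lyve1*, *Vsig4*, *Folr2*, *Timd4*, *Trem2* and *Cx3cr1*. The libraries overlapped between *Mrc1* and *F13a1*, *F13a1* and *Cd163*, *Cd163* and *Lyve1*, and *Vsig4* and *Folr2*, so those neighbours were not separated. In CD11c+ control cells *Timd4* stood sixth and overlapped both of its neighbours, *Lyve1* and *Vsig4*. *Folr2* stood ninth there, just below *Trem2*, with which it overlapped.

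**Figure D2:**
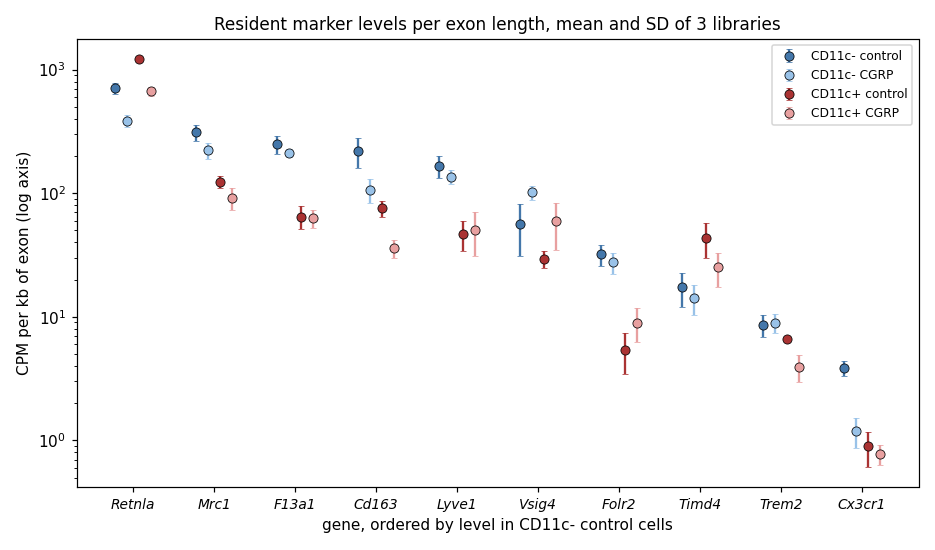
Levels per exon length of the 10 markers in the 4 groups. The vertical axis is CPM per kb on a log scale, points are means of 3 libraries and bars are SD. *Retnla* lies highest and *Cx3cr1* lowest in every group.

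The first question was how the subsets differ before any stimulus. Without CGRP, 9 of the 10 markers differed between CD11c+ and CD11c- cells. Of these, 7 were lower in CD11c+ cells (*Folr2*, *Cx3cr1*, *F13a1*, *Lyve1*, *Cd163*, *Mrc1* and *Vsig4*) and 2 were higher (*Timd4* and *Retnla*), while *Trem2* did not pass the test. Among all tested genes 10.2% were called higher and 10.9% lower in this comparison. The median log2 difference of the 10 members was -1.45, against -0.02 over all tested genes. In 9 members the CD11c+ and CD11c- libraries did not overlap, and across all tested genes this held for 34.2%.

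Among the lining markers, *Cx3cr1* (chromosome 9, 119901616 to 120069879, minus strand, GRCm38) encodes the receptor for fractalkine. It measured 18.9, 14.6 and 18.8 CPM in CD11c- control libraries and 2.86, 5.38 and 3.86 CPM in CD11c+ control libraries. No library of either subset reached the other, and the log2 difference was -2.08 ± 0.40 (adjusted p = 9.282e-04). *Vsig4* (chromosome X, 96247203 to 96293438, minus strand), a complement receptor that takes up opsonised particles, measured 45.0, 119 and 86.8 CPM in CD11c- and 49.4, 44.7 and 36.04 CPM in CD11c+ control libraries. The CD11c- replicate 1 library lay among the CD11c+ libraries, and the log2 difference was -0.96 ± 0.30 (adjusted p = 0.0277). That call was lost without CD11c- control replicate 2 or 3 or CD11c+ control replicate 2 or 3, with adjusted p of 0.221, 0.0697, 0.0821 and 0.135 in turn. *Trem2* (chromosome 17, 48346401 to 48354147, plus strand), a lipid receptor that signals through the adaptor TYROBP, measured 40.9, 51.6 and 34.9 CPM in CD11c- and 33.0, 33.2 and 32.4 CPM in CD11c+ control libraries. Although those libraries did not overlap, the log2 difference of -0.38 ± 0.22 did not pass (adjusted p = 0.261), with a 95% interval from -0.84 to 0.09.

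Among the interstitial or perivascular markers, *Folr2*, a folate receptor of resident macrophages, showed the largest difference of the 10. It measured 58.0, 39.3 and 51.5 CPM in CD11c- control libraries and 11.8, 6.78 and 6.44 CPM in CD11c+ control libraries, and the log2 difference was -2.62 ± 0.30 (adjusted p = 3.809e-06). *Folr2* (chromosome 7, 101839988 to 101857194, minus strand) shares 63.1% of its merged exon length with the plus-strand gene *Gm10602*. The strand setting of the counting is not given, and *Gm10602* itself held 0 to 7 counts per library. *Lyve1* (chromosome 7, 110850607 to 110863239, minus strand) measured 541, 536 and 374 CPM in CD11c- and 176, 134 and 101 CPM in CD11c+ control libraries. Its log2 difference was -1.83 ± 0.24 (adjusted p = 1.459e-05). LYVE1 protein was not used in the gate for either subset, and the transcript was found in all 12 libraries.

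*F13a1* (chromosome 13, 36867178 to 37050244, minus strand), the transglutaminase subunit of coagulation factor XIII, measured 1994, 1499 and 1553 CPM in CD11c- and 519.7, 451 and 336 CPM in CD11c+ control libraries. Its log2 difference was -1.95 ± 0.16 (adjusted p = 1.017e-07), the smallest p of the 10 members. *Cd163* (chromosome 6, 124304656 to 124330527, plus strand), the haemoglobin scavenger receptor, measured 1569, 1134 and 907 CPM in CD11c- and 469, 419 and 348 CPM in CD11c+ control libraries. *Mrc1* (chromosome 2, 14229392 to 14332057, plus strand), which encodes the mannose receptor CD206, measured 2329.7, 1849 and 1798 CPM in CD11c- and 855, 819.8 and 684 CPM in CD11c+ control libraries. The log2 differences were -1.55 ± 0.19 for *Cd163* (adjusted p = 1.106e-05) and -1.34 ± 0.16 for *Mrc1* (adjusted p = 4.853e-06). *F13a1*, *Cd163* and *Mrc1* each separated the subsets without overlap.

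*Timd4* and *Retnla* ran the other way. *Timd4* (chromosome 11, 46810800 to 46844332, plus strand), which encodes the receptor for phosphatidylserine on dying cells, measured 50.9, 33.5 and 28.6 CPM in CD11c- and 67.3, 127 and 89.2 CPM in CD11c+ control libraries. Its log2 difference was 1.32 ± 0.28 (adjusted p = 0.001886). *Retnla* (chromosome 16, 48842551 to 48844461, plus strand) measured 394, 471 and 407 CPM in CD11c- and 726, 726 and 722 CPM in CD11c+ control libraries. Its log2 difference was 0.77 ± 0.12 (adjusted p = 1.384e-04). Relative to its mean, *Retnla* varied least of the 10 among the 3 CD11c+ control libraries. *Retnla* shares 5.45% of its 31-base words with other transcripts, and its paralogue *Retnlg* shares the most of any gene. *Retnlg* held 0 to 31 counts per library against 901 to 3365 for *Retnla*.

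The wider LYVE1+ resident programme was followed through 16 other genes. Without CGRP, 15 of the 16 were lower in CD11c+ cells and none was higher, with a median log2 difference of -2.11. They include the scavenger receptor *Stab1* (-2.39 ± 0.16, adjusted p = 7.032e-09) and the selenium carrier *Selenop* (-1.86 ± 0.24, adjusted p = 1.396e-05). Of 13 tested regulators of resident macrophages, 8 were lower and none was higher, among them the growth factor receptor *Csf1r* (-1.28 ± 0.15, adjusted p = 4.888e-06) and the transcription factor *Maf* (-2.11 ± 0.29, adjusted p = 3.169e-05). *Maf* stands on both of these lists.

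Markers of macrophages in general and of other cells also differed in the same comparison. Of 10 pan-macrophage markers, 8 were lower in CD11c+ control cells and none was higher. The summed level of all 10 overlapped, from 9055 to 12167 CPM in CD11c- and from 8360 to 10747 CPM in CD11c+ control libraries. The 2 not called, *Lyz2* and *Cd14*, had the highest means of this list in both groups. *Lyz2* averaged 3704 ± 702 CPM in CD11c- and 4368 ± 894 CPM in CD11c+ control cells, and *Cd14* 2282 ± 332 and 2890 ± 331 CPM. Of 8 tested dendritic cell markers, 5 were higher, including *Ccr7* (2.52 ± 0.19, adjusted p = 2.986e-08) and *Zbtb46* (2.71 ± 0.27, adjusted p = 7.754e-07), and the 9 listed genes summed to between 115 and 184 CPM in CD11c- and between 650.3 and 724 CPM in CD11c+ control libraries. Of 5 B cell markers, 4 were lower, with sums from 53.7 to 111 CPM in CD11c- and from 7.94 to 13.1 CPM in CD11c+ control libraries. Of 7 tested fibroblast markers, 5 were lower, with sums from 173 to 1375 CPM and from 31.8 to 39.3 CPM. *Col1a1* alone ran from 113 to 2337 counts among the CD11c- control libraries (266 ± 351 CPM). The part of these cells in the marker differences was not tested.

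Cells other than macrophages also transcribe some of the 10 markers, *Lyve1* in lymphatic endothelium and *F13a1* in the platelet lineage among them. Of the lymphatic list only 2 of 5 counted genes were tested and neither differed between the subsets without CGRP. The podoplanin gene *Pdpn* held 363 to 613 counts in CD11c- and 619 to 797 counts in CD11c+ control libraries, beside 432 to 1869 for *Lyve1*. With CGRP, *Pdpn* was called lower in CD11c+ cells, at 371 ± 48.0 CPM against 578 ± 58.1 CPM in CD11c- cells. The other 4 genes of the list lay lower in the control libraries, with at most 7 counts for *Prox1*, 9 for *Flt4*, 11 for *Mmrn1* and 25 for *Reln*. In the platelet list *Pf4*, which resident macrophages also transcribe, was lower in CD11c+ control cells (-2.32 ± 0.23, adjusted p = 8.423e-07).

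**Figure D3:**
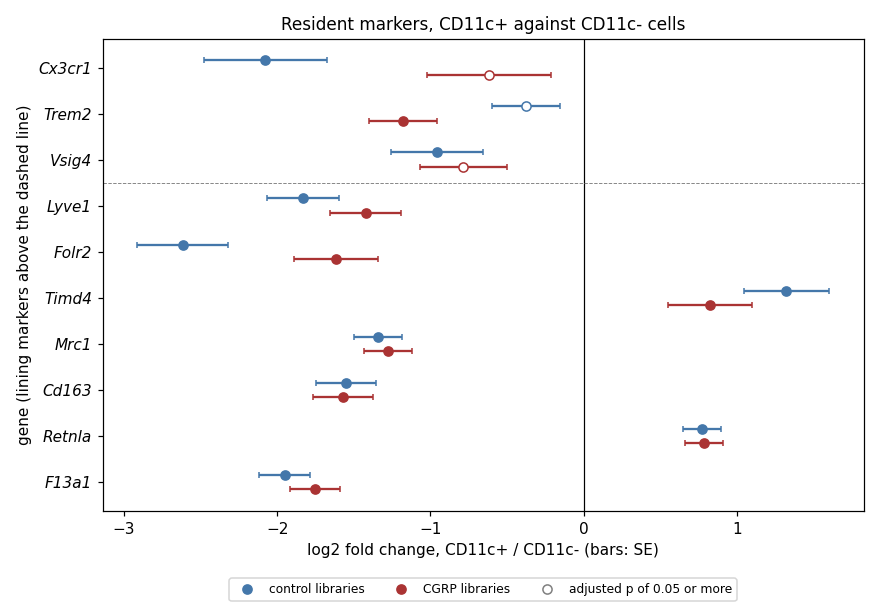
Log2 fold change of CD11c+ against CD11c- cells for the 10 markers. The horizontal axis is the log2 difference with SE bars, blue for control and red for CGRP libraries, and open circles have an adjusted p of 0.05 or more. *Timd4* and *Retnla* lie to the right of 0 and the other 8 genes to the left in both treatments.

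The next question was what CGRP does to these genes in MHCII+CD11c- macrophages. CGRP lowered 4 markers: the alternative activation gene *Retnla*, the scavenger receptor *Cd163*, the fractalkine receptor *Cx3cr1* and the mannose receptor *Mrc1*. None of the 10 rose past the threshold. Among all tested genes 5.32% were called higher and 3.89% lower. The libraries of the treatments did not overlap in 5 members, against 24.9% of all tested genes. The median member difference was -0.29 and that of all tested genes was -0.02.

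*Retnla* measured 394, 471 and 407 CPM in the CD11c- control libraries and 238, 254 and 204 CPM in the CD11c- CGRP libraries. All CGRP libraries lay below all control libraries, and the log2 fold change was -0.87 ± 0.12 (adjusted p = 1.348e-04). *Cd163* went from 1569, 1134 and 907 CPM to 723, 567 and 460 CPM, again without overlap, with a log2 fold change of -1.05 ± 0.19 (adjusted p = 0.001225). *Cx3cr1* went from 18.9, 14.6 and 18.8 CPM to 5.03, 4.13 and 6.98 CPM, the largest change of the 10 in this subset (-1.68 ± 0.39, adjusted p = 0.008331), on 17 to 37 counts per CGRP library. Its libraries then averaged 5.38 ± 1.46 CPM and overlapped those of CD11c+ control cells, which averaged 4.03 ± 1.27 CPM. These 3 calls held when any single library was left out. The highest adjusted p in those refits was 0.0491 for *Cx3cr1*, close to the threshold, 0.0103 for *Cd163* and 0.00179 for *Retnla*.

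*Mrc1* went from 2329.7, 1849 and 1798 CPM to 1646, 1369 and 1229 CPM. No CGRP library reached a control library, but the log2 fold change of -0.49 ± 0.15 lay close to the threshold (adjusted p = 0.0493). The call was lost in 10 of 12 refits with a single library removed, and remained only without CD11c- CGRP replicate 1 or CD11c+ CGRP replicate 1, with adjusted p from 0.0311 to 0.219 over the 12 refits. *Vsig4* lay higher with CGRP in every library, at 156, 168 and 130.1 CPM against 45.0, 119 and 86.8 CPM, and its log2 fold change was 0.85 ± 0.29 (adjusted p = 0.073). *Vsig4* passed the same threshold in 6 of 9 other settings, not counting refits without single libraries, as listed with the processing. *Lyve1* (-0.28 ± 0.23, adjusted p = 0.523), *Folr2* (-0.22 ± 0.26, adjusted p = 0.694), *Timd4* (-0.30 ± 0.28, adjusted p = 0.607), *F13a1* (-0.23 ± 0.16, adjusted p = 0.432) and *Trem2* (0.06 ± 0.22, adjusted p = 0.922) did not pass, and their libraries overlapped between treatments.

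In CD11c+MHCII+ mononuclear phagocytes CGRP lowered *Retnla*, *Cd163* and *Trem2* and raised *Vsig4*. Among all tested genes 6.29% were called higher and 4.59% lower. The treatments did not overlap in 4 members, against 29.2% of all tested genes. The median member difference was -0.32 and that of all tested genes was 0.00.

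*Retnla* went from 726, 726 and 722 CPM to 414, 425 and 359 CPM (-0.86 ± 0.12, adjusted p = 8.041e-05). Its range in CD11c+ cells with CGRP overlapped that of CD11c- control cells. *Cd163* went from 469, 419 and 348 CPM to 232, 177 and 178 CPM (-1.07 ± 0.19, adjusted p = 9.25e-04). Both genes kept these calls without any single library. *Trem2* went from 33.0, 33.2 and 32.4 CPM to 24.7, 15.1 and 18.7 CPM, without overlap (-0.75 ± 0.22, adjusted p = 0.0371). Its call was lost without CD11c+ control replicate 1, 2 or 3 (adjusted p = 0.0799, 0.0783 and 0.0816), without CD11c+ CGRP replicate 2 or 3 (adjusted p = 0.174 and 0.108) and without CD11c- CGRP replicate 1 (adjusted p = 0.0501).

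*Vsig4* went from 49.4, 44.7 and 36.04 CPM to 86.7, 125 and 52.1 CPM, a log2 fold change of 1.02 ± 0.30 (adjusted p = 0.0304). CGRP replicate 3 stood just above the highest control library. The call was lost without CD11c+ control replicate 2 or 3 (adjusted p = 0.0841 and 0.14) and without CD11c+ CGRP replicate 1 or 2 (adjusted p = 0.0648 and 0.196). *Timd4* went from 67.3, 127 and 89.2 CPM to 73.6, 41.8 and 48.0 CPM, with CGRP replicate 1 inside the control range, and did not pass (-0.80 ± 0.27, adjusted p = 0.0629). *Folr2* measured 11.8, 6.78 and 6.44 CPM without and 18.4, 13.1 and 10.1 CPM with CGRP (0.78 ± 0.30, adjusted p = 0.111). It passed without CD11c+ control replicate 1 (adjusted p = 0.0449). *Mrc1* (-0.43 ± 0.15, adjusted p = 0.0865), *Cx3cr1* (-0.22 ± 0.42, adjusted p = 0.827), *Lyve1* (0.13 ± 0.23, adjusted p = 0.821) and *F13a1* (-0.04 ± 0.16, adjusted p = 0.934) did not pass.

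**Figure D4:**
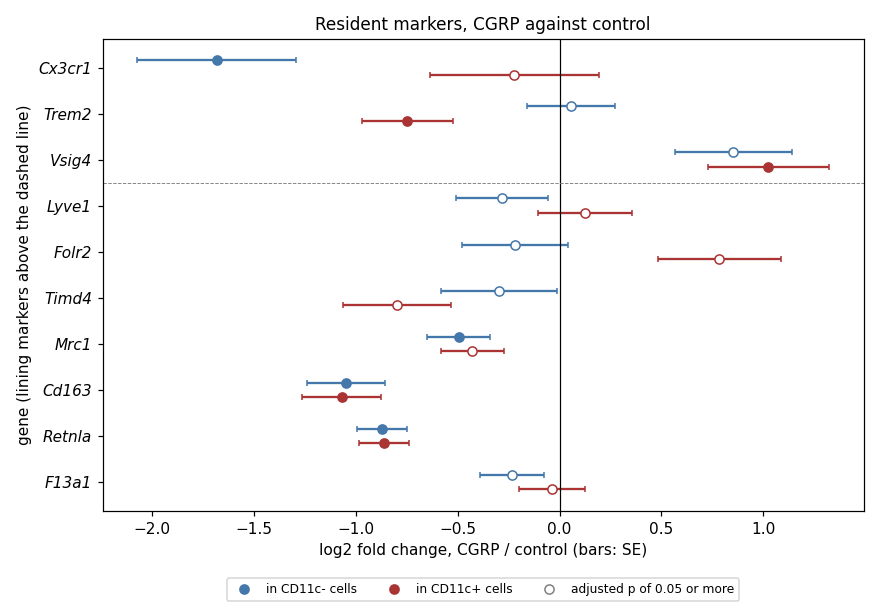
Log2 fold change of CGRP against control for the 10 markers. The horizontal axis is the log2 change with SE bars, blue for CD11c- and red for CD11c+ cells, and open circles have an adjusted p of 0.05 or more. *Cd163* and *Retnla* are filled and left of 0 in both subsets.

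The genes behind the sort changed with CGRP as well, and their part in the marker results was not tested. *H2-Ab1*, an MHC class II chain, fell in CD11c- cells (-0.74 ± 0.11, adjusted p = 3.162e-04) and in CD11c+ cells (-0.66 ± 0.11, adjusted p = 5.74e-04). *Itgax* fell in CD11c+ cells, from 237 ± 29.0 to 115 ± 7.33 CPM (-1.03 ± 0.30, adjusted p = 0.0288). Dendritic cell and B cell sums in CD11c- cells went from 115 to 184 CPM to 92.1 to 121 CPM, and from 53.7 to 111 CPM to 22.0 to 42.0 CPM. None of the 5 B cell markers passed the test in CD11c- cells, and 1 of 8 dendritic cell markers fell there. In CD11c+ cells the dendritic cell sum went from 650.3 to 724 CPM to 693 to 794 CPM, with 1 of 8 markers higher and 3 lower, and the B cell sum from 7.94 to 13.1 CPM to 1.42 to 5.56 CPM. The dendritic cell marker that rose there was *Ccr7*, from 240 ± 33.4 to 576 ± 53.9 CPM. Those that fell were *Cd209a* (297 ± 7.06 to 79.3 ± 9.84 CPM), *Flt3* (18.6 ± 1.96 to 4.46 ± 2.91 CPM) and *Dpp4* (24.5 ± 7.25 to 5.87 ± 2.16 CPM). In the platelet list 2 of 4 tested genes rose in both subsets, the platelet chemokine *Ppbp* (3.02 ± 0.47, adjusted p = 3.126e-04 in CD11c- cells, and 3.35 ± 0.45, adjusted p = 4.133e-05 in CD11c+ cells) and *Pf4* (0.87 ± 0.22, adjusted p = 0.0127, and 1.22 ± 0.23, adjusted p = 0.001147). The 5 counted genes of that list went in sum from 270 to 414 CPM to 574 to 721 CPM in CD11c- cells and from 51.7 to 98.7 CPM to 160 to 250 CPM in CD11c+ cells. Of the lymphatic list *Pdpn* rose in both (1.72 ± 0.15, adjusted p = 1.207e-06, and 0.88 ± 0.15, adjusted p = 5.616e-04), *Reln* did not pass in either, and in CGRP libraries *Reln* held at most 43 counts, *Flt4* 26, *Prox1* 9 and *Mmrn1* 6. Fibroblast sums ranged from 53.5 to 1581 CPM in CD11c- CGRP libraries, with 3 of 7 markers lower than in control, and from 80.8 to 389 CPM in CD11c+ CGRP libraries, with 2 of 7 higher. *Prg4*, which was not among the 3 lower markers, ran from 11 to 5416 counts among the CD11c- CGRP libraries (479 ± 826 CPM).

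Upstream sequence is shown for the pair that fell in both subsets and for *Vsig4*, which moved in the opposite direction. RefSeq's promoter table (GRCm38.p6) held windows of 250 bases before and 50 after the RefSeq start for 9 of the 10 members. The 250 upstream bases are printed 5′ to 3′ on the gene's strand, with every searched motif in capitals. The windows are chr16:48842359-48842658 for *Retnla* and chr6:124304401-124304700 for *Cd163*, both on the plus strand, and chrX:96293389-96293688 for *Vsig4* on the minus strand. For *Retnla* the GENCODE start used above, 48842551, lies within the printed upstream bases. The capitalised MAF half-site TCAGCA of *Retnla* therefore lies inside the gene by GENCODE and upstream of it by RefSeq.
Retnla: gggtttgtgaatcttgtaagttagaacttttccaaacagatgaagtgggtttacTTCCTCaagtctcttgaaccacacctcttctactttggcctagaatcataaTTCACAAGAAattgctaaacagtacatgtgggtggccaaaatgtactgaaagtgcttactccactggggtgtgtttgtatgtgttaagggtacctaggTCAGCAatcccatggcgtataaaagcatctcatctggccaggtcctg
Cd163: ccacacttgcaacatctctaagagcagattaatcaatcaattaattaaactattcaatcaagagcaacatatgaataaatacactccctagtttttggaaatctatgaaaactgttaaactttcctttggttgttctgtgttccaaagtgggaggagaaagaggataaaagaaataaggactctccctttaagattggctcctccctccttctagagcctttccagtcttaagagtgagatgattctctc
Vsig4: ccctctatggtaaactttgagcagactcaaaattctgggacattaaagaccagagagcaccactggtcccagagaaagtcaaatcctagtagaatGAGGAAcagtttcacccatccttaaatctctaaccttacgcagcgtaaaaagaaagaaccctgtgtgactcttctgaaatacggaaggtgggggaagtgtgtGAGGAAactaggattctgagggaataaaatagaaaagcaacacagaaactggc
The motifs searched on both strands were the cyclic AMP response element TGACGTCA, the PU.1 core GAGGAA, the MAF half-site TGCTGA and the STAT6 spacing motif TTCNNNNGAA. The cyclic AMP element was in 0 of 9 member windows and in 1.79% of all 32851 promoters. The PU.1 core was in 5 of 9, against 28.3% of all promoters, and the MAF half-site in 4 of 9, against 19.5%. The STAT6 motif was in the *Retnla* window only, 1 of 9, against 6.95% of all promoters. The *Retnla* window held 1 PU.1 core, 1 MAF half-site and 1 STAT6 motif, the *Vsig4* window held 2 PU.1 cores and 1 MAF half-site, which lies in the 50 bases not printed, and the *Cd163* window held none of the 4. A match is a description of letters only.

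Whether CGRP acted differently in the subsets was tested by the interaction, the CGRP effect in CD11c+ cells minus that in CD11c- cells. No member was called, by edgeR or by DESeq2, limma-voom or any other setting, and 0.151% of all tested genes were. In edgeR 3 members had an unadjusted p under 0.05: *Cx3cr1* (1.46 ± 0.57, adjusted p = 0.449), *Trem2* (-0.80 ± 0.31, adjusted p = 0.446) and *Folr2* (1.001 ± 0.40, adjusted p = 0.451). By p for the interaction they ranked 507, 497 and 558 in that order among the 11927 tested genes, so many other genes had a smaller p. The share of all tested genes with an unadjusted p under 0.05 is not given here. A call in one subset alone, as for *Cx3cr1*, *Trem2*, *Mrc1* and *Vsig4*, is therefore not shown to differ between the subsets. For *Retnla* and *Cd163* the interaction was 0.01 (95% interval -0.35 to 0.37) and -0.02 (-0.58 to 0.54). The CGRP libraries enter both the treatment and the subset comparisons, which are given side by side.

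With CGRP, 8 of the 10 markers differed between the subsets. Of these, 6 were lower in CD11c+ cells: *F13a1* (-1.76 ± 0.16, adjusted p = 3.273e-07), *Mrc1* (-1.28 ± 0.16, adjusted p = 8.379e-06), *Cd163* (-1.57 ± 0.19, adjusted p = 9.752e-06), *Lyve1* (-1.42 ± 0.23, adjusted p = 1.745e-04), *Folr2* (-1.61 ± 0.27, adjusted p = 2.583e-04) and *Trem2* (-1.18 ± 0.22, adjusted p = 7.529e-04). *Retnla* (0.78 ± 0.12, adjusted p = 1.273e-04) and *Timd4* (0.82 ± 0.28, adjusted p = 0.0463) were higher. Among all tested genes 8.36% were called higher and 8.51% lower. No member overlapped between the subsets in the CGRP libraries, 10 of 10 against 34.8% of all tested genes. *Cx3cr1* (-0.62 ± 0.40, adjusted p = 0.358) and *Vsig4* (-0.79 ± 0.28, adjusted p = 0.0652) did not pass.

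*Trem2* is the member that passed here and not without CGRP, and the change in that difference is the interaction given above. It measured 49.2, 35.5 and 48.5 CPM in CD11c- and 24.7, 15.1 and 18.7 CPM in CD11c+ CGRP libraries. *Timd4* measured 37.1, 34.7 and 21.3 CPM in CD11c- and 73.6, 41.8 and 48.0 CPM in CD11c+ CGRP libraries. Its call was lost in 7 of 12 refits with a single library removed, with adjusted p of 0.0573 without CD11c- control replicate 2 and 0.0564 without CD11c+ control replicate 3. Without CD11c- CGRP replicates 1, 2 and 3 it was 0.0533, 0.0729 and 0.204, and without CD11c+ CGRP replicates 1 and 3 it was 0.25 and 0.0569. *Lyve1* measured 439, 417 and 339 CPM in CD11c- and 214, 123 and 107 CPM in CD11c+ CGRP libraries.

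Genes that work with these markers gave a mixed picture with CGRP. Of 14 genes of TREM2 signalling and lipid handling, 4 rose and 2 fell in CD11c- cells, and 2 rose and 2 fell in CD11c+ cells. The tetraspanin *Cd9* rose in both (1.05 ± 0.19, adjusted p = 9.628e-04, and 0.86 ± 0.17, adjusted p = 0.001976). Of 8 tested scavenger receptors other than *Cd163*, 2 rose in CD11c- cells, and 2 rose and 1 fell in CD11c+ cells. The fatty acid receptor *Cd36* rose in both (0.76 ± 0.14, adjusted p = 9.628e-04, and 1.496 ± 0.14, adjusted p = 1.316e-06), opposite in sign to *Cd163*, and so did *Msr1* (0.99 ± 0.20, adjusted p = 0.002441, and 1.40 ± 0.21, adjusted p = 1.676e-04).

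Of 13 alternative activation genes other than *Retnla*, 2 rose and 3 fell in CD11c- cells, and 3 rose and 3 fell in CD11c+ cells. The lectin *Mgl2* fell with *Retnla* in both (-1.08 ± 0.20, adjusted p = 0.001696, and -1.51 ± 0.20, adjusted p = 4.375e-05), whereas the chemokine *Ccl22* rose in both (3.81 ± 0.48, adjusted p = 3.32e-05, and 1.55 ± 0.30, adjusted p = 0.001485). Of the 16 other LYVE1+ programme genes, 1 rose and 1 fell in CD11c- cells, and 3 rose and none fell in CD11c+ cells. Of 13 regulators, 3 fell and none rose in CD11c- cells, and 2 rose and 2 fell in CD11c+ cells. The shear-responsive transcription factor *Klf2* fell in both (-0.83 ± 0.13, adjusted p = 4.126e-04, and -1.29 ± 0.13, adjusted p = 4.297e-06). Of 9 other lining barrier genes, 1 rose and none fell in CD11c- cells and 3 rose in CD11c+ cells, the junction gene *F11r* in both (1.4999 ± 0.34, adjusted p = 0.00643, and 1.59 ± 0.32, adjusted p = 0.002345). Another of the 3, *Cldn5*, held 0 counts in every CD11c+ control library and 0 to 47 counts in CD11c+ CGRP libraries. The matricellular gene *Sparc*, which fibroblasts also transcribe, rose in CD11c+ cells (2.33 ± 0.37, adjusted p = 2.739e-04) and did not pass in CD11c- cells (-0.72 ± 0.34, adjusted p = 0.222), and its interaction was called (3.05 ± 0.50, adjusted p = 0.0143). The fibroblast marker *Dcn* also rose in CD11c+ cells (4.88 ± 0.84, adjusted p = 5.767e-04), and its interaction was called too. The part of fibroblasts in the *Sparc* change was not tested. None of the 3 fractalkine pathway genes passed in either subset. The fractalkine gene *Cx3cl1* itself held at most 11 counts in any CD11c- library, against 19 to 47 in CD11c+ control and 31 to 63 in CD11c+ CGRP libraries. It was higher in CD11c+ cells without CGRP (3.92 ± 0.95, adjusted p = 0.005377) and with CGRP (3.06 ± 0.83, adjusted p = 0.0138).

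To place each marker among all genes, Pearson's r of log2(CPM + 1) was taken over the 12 libraries against 8462 genes averaging at least 5 CPM. The 12 libraries share their groups, so these values describe patterns across 4 groups more than independent samples, and no test was made. The nearest gene was the carbonyl reductase *Cbr2* for *Lyve1* (r = 0.993), the receptor *Csf1r* for *Mrc1* (0.991), the IL-17 receptor chain *Il17ra* for *Cd163* (0.990), *Mfsd1* for *F13a1* (0.989) and the calcineurin regulator *Rcan1* for *Folr2* (0.985). *Retnla* lay nearest the transcription factor *Irf4* (0.980) and *Cx3cr1* nearest the receptor *Notch1* (0.979). *Trem2*, *Vsig4* and *Timd4* had the least close neighbours, *Arl11* (0.941), *Tent5a* (0.933) and the interferon-gamma receptor chain *Ifngr1* (0.924).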

How the data were processed

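Per the labels and methods of the study, RNA from 12 libraries was sequenced with a stranded total RNA kit on a paired-end run. After trimming with Trim Galore, the authors mapped the reads to mm10 (HISAT2), assigned them to genes (featureCounts) and deposited raw counts for 26699 symbols. Versions, annotation and strand setting are not given in the sources used here. The combined table repeats the 12 libraries, and its 6 further columns have no label and were not used.

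Genes were kept with filterByExpr (minimum count 10, minimum total 15), scaled by TMM and fitted in edgeR 4.0.16 (R 4.3.3) with a mean per group over all 12 libraries. This left 11927 genes and 5 contrasts. Positions and exon lengths are from GENCODE vM21 on GRCm38, the build of mm10. Library totals from 2127191 to 5649698 put 3 counts, the floor of detection, at 0.534 to 1.34 CPM, counting error only. The members and lists were chosen with earlier results of these data known. All 10 members are named, and from 20 companion lists up to 4 genes with the smallest p between the subsets without CGRP or for CGRP. *Prox1*, *Flt4*, *Mmrn1*, *Reln*, *Cldn5*, *Lyz2*, *Cd14*, *Prg4* and *Flt3* were named after their values were seen. Genes that the rule picks but that are not named are not reported here.

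Alternatives were RLE and upper-quartile scaling, no filter or at least 10 counts in every library, a replicate block, DESeq2 1.42.0, limma-voom (limma 3.58.1), the compared libraries alone, a single surrogate variable (sva 3.50.0), an adjusted p of 0.1 and leaving out each library. The replicate block within treatment was added after seeing the data.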

Additional observations from a re-analysis of the deposited data

How the results depend on the processing

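No call among the 10 members changed direction, and the counts of called members stayed within 1.5 times under every alternative that kept all libraries. Leaving out a library moved the count of members called for CGRP in CD11c+ cells from 4 to between 2 and 5, with 2 without CD11c+ control replicate 2, CD11c+ control replicate 3 or CD11c+ CGRP replicate 2. *Vsig4* passed for CGRP in CD11c- cells with no filter (adjusted p = 9.65e-06), the stricter filter (0.0437), DESeq2 (0.0379), limma-voom (0.0468) and the compared libraries alone (0.0301), and with the replicate block (0.0236). *Mrc1* in CD11c+ cells passed with DESeq2 (adjusted p = 0.0442), no filter (0.025) and the replicate block (0.00648), and *Vsig4* between the subsets with CGRP passed with DESeq2 (0.0477), limma-voom (0.00584) and both forms of the replicate block (0.0182 and 0.0121), among others. *Timd4* with CGRP in CD11c+ cells passed with no filter (0.00196), the stricter filter (0.0358), upper-quartile scaling (0.046), DESeq2 (0.045), limma-voom (0.02), the compared libraries alone (0.0459) and the replicate block (0.0335), as adjusted p. Requiring at least 10 counts in every library removed *Cx3cr1* from the test. Over all genes, 18 interaction calls became 171 with no filter, 82 with DESeq2, 38 with a surrogate variable, 42 at an adjusted p of 0.1, 36 and 52 with the 2 forms of the replicate block, 5 with the stricter filter and 2 with limma-voom, and 6 to 29 without single libraries. The 1099 genes called for CGRP in CD11c- cells became 722 without CD11c- CGRP replicate 2. Counts of called genes in the companion lists, recomputed under RLE and upper-quartile scaling, moved by over 1.5 times in 4 of 200 cases, and in 79 of 1200 without single libraries. Changes of sign were confined to values that were never called: *F13a1* in CD11c+ cells with CGRP (limma-voom 0.051), and the interactions of *Vsig4* (limma-voom -0.023), *Mrc1* (no filter -0.0051) and *Retnla* (no filter -0.062, limma-voom -0.023). Without a library each, the CGRP effect ranged from -0.035 to 0.25 for *Trem2* in CD11c- cells, and in CD11c+ cells from -0.39 to 0.0018 for *Cx3cr1*, -0.27 to 0.34 for *Lyve1* and -0.22 to 0.10 for *F13a1*. The interactions ranged from -0.22 to 0.47 for *Vsig4*, -0.0052 to 0.61 for *Lyve1*, -0.16 to 0.18 for *Mrc1*, -0.27 to 0.15 for *Cd163*, -0.10 to 0.075 for *Retnla* and -0.0015 to 0.33 for *F13a1*. The cause of these shifts was not tested. Same-numbered libraries did not deviate together in every comparison (r from -0.02 to 0.29 over 7161 genes), so numbers were not taken as pairs. Between the subsets with CGRP, r was 0.29, 0.09 and 0.13 for replicates 1, 2 and 3. The labels do not say whether same-numbered libraries of both subsets came from the same explant. With the replicate block, 5, 6, 0, 9 and 9 members were called for CGRP in CD11c-, CGRP in CD11c+, the interaction, and the subsets without and with CGRP; within treatment the last 3 were 0, 9 and 9.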

Other observations

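Of 5 tested mast cell markers, only *Kit* was higher in CD11c+ control cells (1.95 ± 0.59, adjusted p = 0.0233), and none moved with CGRP in either subset. *Kit* also stands on the dendritic cell list and is counted among its higher genes. None of 3 tested neutrophil markers and none of 5 tested blood endothelial markers moved with CGRP, and 1 endothelial marker was higher in CD11c+ control cells. Of 10 tested monocyte-derived genes, 5 were higher and 1 lower in CD11c+ control cells, led by the protease gene *Napsa* (2.25 ± 0.30, adjusted p = 2.397e-05). With CGRP 3 fell in CD11c- cells, and 4 fell and 1 rose in CD11c+ cells. Within the 4 groups, replicate 1 was the highest library for 7 members in control and 7 in CGRP libraries of CD11c- cells, and for 6 and 7 members in those of CD11c+ cells.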
